A study of Mus musculus with 24 samples.

Results

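The comparison set hours with abundant transcripts of the REV-ERB repressors against hours, 12 h away in phase, with abundant BMAL1 transcript. The cells were differentiated MMH-D3 cells, an established mouse hepatocyte line. The comparison used 8 of the 24 arrays of the time course, and no protein was measured. The REV-ERB-high hours were 16, 18, 40 and 42 h after a serum shock, and the BMAL1-high hours were 28, 30, 52 and 54 h, with 4 arrays in each group. The first day held 16, 18, 28 and 30 h, and the second day 40, 42, 52 and 54 h. Every sample of both groups carried the same treatment: confluent cells had been differentiated for 14 days in growth medium with 2% DMSO and then given a serum shock, a pulse of serum that aligns the clocks of cultured cells. As far as the labels say, the groups differed only in the hours elapsed since the shock. MMH lines come from livers of transgenic mice that carry a truncated, active form of the human Met receptor, which limits them as a model of normal hepatocytes. All samples came from 1 cell line, and nothing in the labels says that they came from separate cultures, so the p-values measure the spread between arrays, which may be technical in part. Each hour had 1 array. The arrays of a group lie 2 or 24 h apart, and their spread includes real change with time.

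In mammalian cells the activators BMAL1 (gene Arntl) and CLOCK bind E-box sequences and switch on the genes of the period and cryptochrome repressors, of the REV-ERB nuclear receptors (Nr1d1 and Nr1d2) and of the PAR bZIP factors DBP and TEF. REV-ERBs bind elements shared with the ROR activators, called ROREs, and repress Arntl, Nfil3 and other genes, while DBP, TEF and the repressor NFIL3 compete for D-boxes. In liver this circuit is known for driving daily rhythms in lipid, glucose and detoxification pathways. REV-ERB transcripts and the Arntl transcript therefore lie near opposite phases in many tissues, and the hours compared here were named for that opposition. The levels of Nr1d1, Nr1d2 and Arntl in these 8 arrays describe how the hours were picked and support nothing further.

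The values are log2 expression values per probe set, a set of probes for 1 transcript, as the authors normalized them with GCRMA. A difference of 1 is a 2-fold difference. Of 45037 probe sets outside the controls, 18302 reached a log2 value of 5 in at least 4 of the 8 arrays and were kept, and they represented 9739 genes, each by its probe set of highest mean. At the edge of that limit, 64 probe sets reached 5 in exactly 4 arrays and 89 left-out ones in exactly 3. The array of 40 h stood apart from the other 7, with a median of 8.99 over the kept probe sets against 9.08 to 9.15. Hepatocyte markers were present in part: 8 of 14 on the array were kept, among them Alb with a mean of 16.05 and Hnf4a with 12.02. Apoa2, F2, Apoh, Cyp2e1, Cps1 and Tat lay at or near the lowest value of the table, 2.17. The bile duct keratin Krt19 averaged 15.47, and the fetal marker Afp 11.81. None of 9 fibroblast and stellate markers and none of 5 markers of endothelium reached the limit, and the mean over the endothelial markers did not exceed 2.19 on any of the 8 arrays. Of 7 macrophage markers Cd14, Cd68 and Csf1r were kept, while Ptprc and Adgre1 lay at or near the lowest value.

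Promoter sequence offers a way to place the genes that differed among the clock's targets. E-box windows are shown for the clock and output genes with a match whose 2 groups of arrays did not overlap, on either side of the comparison, and for Per1, a classical E-box gene whose groups did overlap. Ppp1r3c and Sgk1, output genes whose groups also overlapped, held an E-box too, and their windows are not shown. The windows were read from RefSeq promoters of build GRCm38.p6, which run from 250 bases before to 50 bases after each transcript start. The motifs searched on both strands were the E-box CACGTG, the RORE cores TAGGTCA and TGGGTCA, and the D-boxes TTATGTAA and TTACGTAA. Matches of different motifs were counted separately, also where their letters overlap. In the E-box windows the capitals mark the E-box, and each sequence reads 5′ to 3′ along its gene. Tef has a match in each of its 2 promoters, at chr15:81802516-81802581 and chr15:81811246-81811311 (plus strand). The others lie at chr7:141476299-141476364 for Tspan4 (plus strand), chr11:69098753-69098818 for Per1 (plus strand), chr10:85185079-85185144 for Cry1 (minus strand) and chrX:36328334-36328399 for Lonrf3 (plus strand).
Tef, first promoter: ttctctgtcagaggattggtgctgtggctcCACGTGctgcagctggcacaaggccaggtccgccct
Tef, second promoter: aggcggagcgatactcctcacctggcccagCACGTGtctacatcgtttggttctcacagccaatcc
Tspan4: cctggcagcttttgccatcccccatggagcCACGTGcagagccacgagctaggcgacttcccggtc
Per1: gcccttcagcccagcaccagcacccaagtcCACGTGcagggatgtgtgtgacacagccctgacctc
Cry1: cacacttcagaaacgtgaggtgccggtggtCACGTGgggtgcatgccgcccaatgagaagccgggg
Lonrf3: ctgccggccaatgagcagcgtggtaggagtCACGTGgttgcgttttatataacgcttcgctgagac

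The same 6 letters thus stood upstream of genes on opposite sides: Tef and Tspan4 were higher in all REV-ERB-high arrays than in any BMAL1-high array, and Cry1 and Lonrf3 were lower. The match began 127 and 138 bases before the start in Tef, 51 in Tspan4, 166 in Per1, 60 in Cry1 and 45 in Lonrf3. Across all 32851 promoters of the table, 7.15% held the E-box, which is 8.09% of 27025 genes and 12.4% of the genes kept here that had a promoter. RORE cores were found in 6.45% of all promoters and D-boxes in 1.06%. Arntl, at chr7:113207530-113207559 (plus strand), and Nfil3, at chr13:52981033-52981062 (minus strand), both lower at the REV-ERB-high hours, held a RORE core, in capitals in the following windows, which are shown because both genes are known REV-ERB targets. Leo1, also lower, held a RORE core as well, and so did Insig2, whose groups overlapped. It began at base 31 of the transcript in Arntl and 12 bases before the start in Nfil3, where the letters are those of the opposite strand.
Arntl: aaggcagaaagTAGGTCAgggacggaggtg
Nfil3: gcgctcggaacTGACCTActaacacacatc

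None of the 3 kinds of motif was found in these windows of Nr1d1, Nr1d2, Dbp, Clock, Rora and Cry2, which says only that these letters do not stand there. Per2 and Bhlhe40 had no entry in the promoter table. A match describes the sequence and does not show binding.

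The REV-ERB genes were several-fold higher at the hours named for them, as the choice of hours implies. Nr1d1, which encodes REV-ERB alpha, stood at 8.26 and 7.92 at 16 and 18 h, at 4.20 and 5.88 at 28 and 30 h, at 8.24 and 8.83 at 40 and 42 h and at 7.01 and 6.95 at 52 and 54 h. The groups did not overlap, and the mean difference was 2.30, a ratio of 4.92. Its trough was deeper on the first day, so the difference was 3.05 on that day and 1.55 on the second. Nr1d2, which encodes REV-ERB beta, gave 12.08 and 12.14, then 9.87 and 9.67, then 11.97 and 11.74, then 10.82 and 10.92 at the same hours. The second trough of Nr1d2 was again the shallower, and the difference fell from 2.34 on the first day to 0.99 on the second. For Nr1d2 this change between the days passed limma's test of group by day, with a difference of −1.35 ± 0.17 (SE, adjusted p = 0.00251), while for Nr1d1 it was −1.50 ± 0.661 (adjusted p = 0.209). In the other probe set of Nr1d2 the difference was 2.57 on the first day and 0.90 on the second, a change of −1.67 (limma adjusted p = 0.029).

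Arntl lay the opposite way. Its values were 7.16 and 6.54 at 16 and 18 h, 8.65 and 8.51 at 28 and 30 h, 6.92 and 6.86 at 40 and 42 h, and 9.22 and 9.25 at 52 and 54 h. The REV-ERB-high group averaged 6.87 ± 0.256 (SD, n = 4) and the BMAL1-high group 8.91 ± 0.38, without overlap, a ratio of 4.10. Clock, the partner of BMAL1, showed a smaller separation of −0.59, from 9.74 to 10.19 at the REV-ERB-high hours and from 10.25 to 10.85 at the BMAL1-high hours. That difference did not pass limma's test (adjusted p = 0.568), and 2 other probe sets of Clock gave −0.07 and −0.13 with overlapping groups. Rora, which encodes a ROR activator that competes with REV-ERBs, lay between 9.33 and 9.85 in all 8 arrays with a difference of 0.07. Of the remaining activators and repressors of the loop, Npas2, Rorb, Bhlhe41 and Ciart were below the limit in all 8 arrays.

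**Figure D1:**
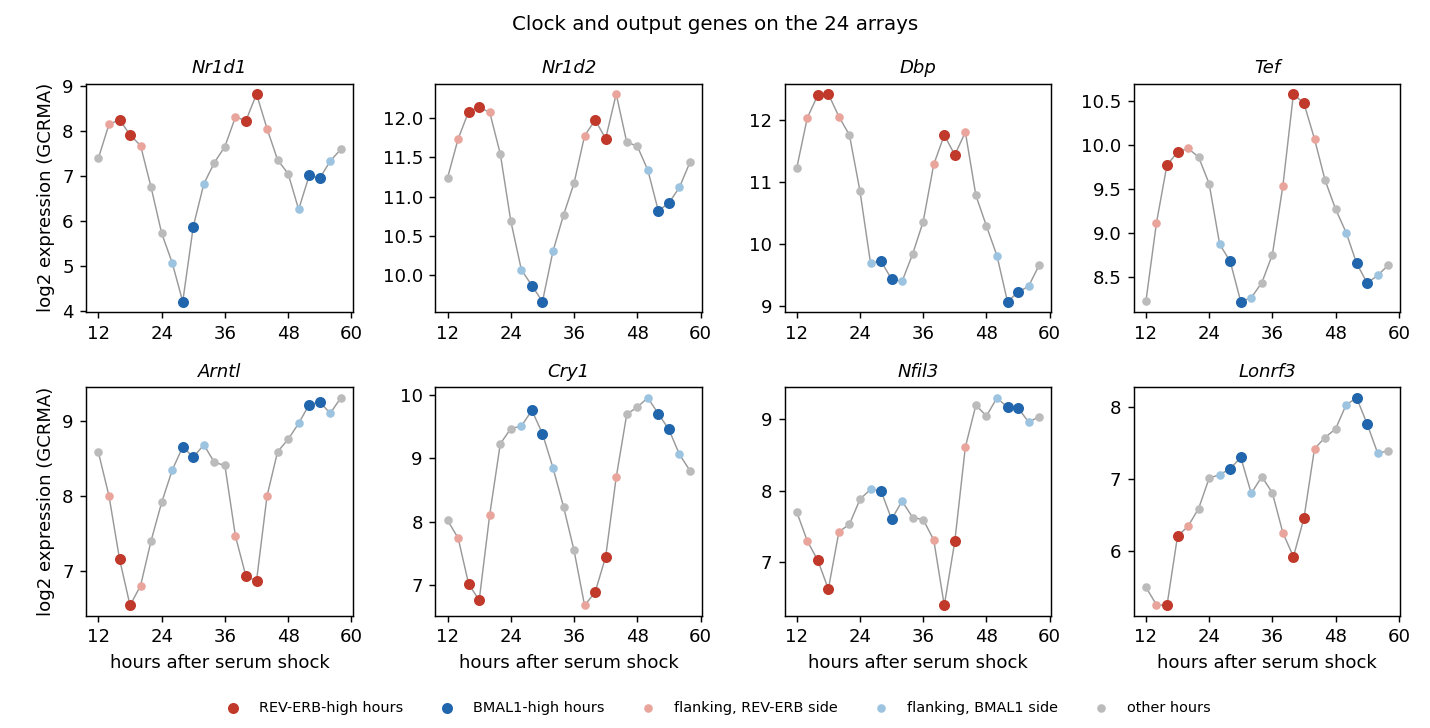
Log2 expression of 8 clock and output genes on each of the 24 arrays, plotted against hours after serum shock, with 1 array per point and a separate vertical scale for each gene. The 4 REV-ERB-high arrays (red) lie above the 4 BMAL1-high arrays (blue) for Nr1d1, Nr1d2, Dbp and Tef, and below them for Arntl, Cry1, Nfil3 and Lonrf3; pale points are the flanking arrays that the rule left out.

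Because the BMAL1-high hours of each day came 12 h later than the REV-ERB-high hours, a steady rise or fall over the time course would also separate the groups with the same sign on both days. The test therefore carried a linear term in hours, and a gene was called when limma's p-value, adjusted over the 18302 probe sets by the Benjamini-Hochberg method, was under 0.05 and both days had the same sign. This fit called 6 probe sets, 0.0328% of those tested, with 3 in each direction (0.0164%); counted by genes' representative probe sets there were 4 (0.0411%). Higher at the REV-ERB-high hours were Tef and both probe sets of Dbp. Lower were Cry1, Arntl and 1 of 2 probe sets of Ivl. At an unadjusted p under 0.05 with the same sign on both days there were 692 probe sets higher (3.78%) and 698 lower (3.81%). A same sign on both days was in itself common, with 24.5% of probe sets higher and 26.3% lower at the REV-ERB-high hours on both days. In 19.1% of probe sets for either direction the level also turned back between 28, 30 h and 40, 42 h, as a steady drift would not. When all 45037 probe sets were tested with no filter on low values, 0 were called, and the smallest adjusted p from limma was 0.109.

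DBP and TEF are PAR bZIP factors that bind D-boxes and pass clock timing on to liver genes. Dbp had values of 12.41, 12.42, 11.76 and 11.44 at 16, 18, 40 and 42 h and of 9.72, 9.43, 9.07 and 9.22 at 28, 30, 52 and 54 h. The lowest of the first 4 exceeded the highest of the others by more than the range within either group. The means were 12.01 ± 0.489 (SD, n = 4) and 9.36 ± 0.283, a ratio of 6.27, and the drift-adjusted difference was 2.33 ± 0.135 (SE, limma adjusted p = 0.00095). The other probe set of Dbp gave 2.45 ± 0.146 (limma adjusted p = 0.00095). Dbp kept its call when any of the 8 arrays was left out.

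Tef read 9.77, 9.91, 10.58 and 10.47 at the REV-ERB-high hours and 8.67, 8.22, 8.65 and 8.43 at the BMAL1-high hours. Again no BMAL1-high array reached the REV-ERB-high range, and the second crest was the higher. The means of Tef were 10.18 ± 0.4 (SD, n = 4) and 8.49 ± 0.215, a ratio of 3.23, with a drift-adjusted difference of 1.88 ± 0.183 (SE, limma adjusted p = 0.0242). Its other probe set gave 1.70 ± 0.198 and missed the threshold (limma adjusted p = 0.0526). The call was lost without the arrays of 16, 18, 30, 40, 42 or 52 h, when the adjusted p rose to between 0.0507 and 0.286. Hlf, the other member of the family, lay at the lowest value of the table.

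NFIL3 opposes the PAR bZIP factors at D-boxes. Nfil3 had values of 7.03, 6.63, 6.40 and 7.30 at 16, 18, 40 and 42 h, against 7.99 and 7.60 at 28 and 30 h and 9.16 and 9.15 at 52 and 54 h. The groups did not overlap, with a mean difference of −1.64, but the level on the second day exceeded that of the first at the BMAL1-high hours. After the linear term the difference of Nfil3 was −1.29 ± 0.347 and was not called (limma adjusted p = 0.568).

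The cryptochromes and period proteins close the loop by repressing BMAL1 and CLOCK. Cry1 gave 7.01, 6.75, 6.88 and 7.44 at the REV-ERB-high hours and 9.76, 9.39, 9.71 and 9.46 at the BMAL1-high hours. These groups lay about as far apart as those of Dbp, in the opposite direction. Cry1 averaged 7.02 ± 0.299 (SD, n = 4) against 9.58 ± 0.181, a ratio of 5.89, and its drift-adjusted difference was −2.49 ± 0.187 (SE, limma adjusted p = 0.00407). It stayed called when any of the 8 arrays was left out. For Arntl the drift-adjusted difference was −1.87 ± 0.205 (limma adjusted p = 0.0389), and it stayed called only when the array of 16 h was the one left out. Without any of the other 7 arrays its adjusted p lay between 0.134 and 0.346. The hours were named for Arntl, so its call restates that choice, unlike that of Cry1.

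The other negative arm genes did not divide along the same hours. Cry2 lay between 8.53 and 8.95 at the REV-ERB-high hours and between 8.45 and 8.76 at the BMAL1-high hours, and Per1 between 5.61 and 6.70 and between 5.57 and 6.35. Per2 lay between 6.65 and 7.69 and between 6.66 and 7.41. In Per2 the hours compared fell on the slopes of its course: the highest values of the 24 arrays were 8.48 at 22 h and 8.37 at 46 h. The drift-adjusted differences were 0.23 ± 0.149 for Cry2, 0.27 ± 0.299 for Per1 and 0.04 ± 0.274 for Per2, and none passed. Bhlhe40, an E-box repressor, differed by 0.40 with groups that overlapped at their edges, and Csnk1d, Csnk1e and Timeless by −0.09, −0.20 and −0.12. Per3 and Fbxl21 were below the limit in all 8 arrays.

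Of the 13 core clock genes measured, out of 19 on the array, Arntl and Cry1 passed, and Arntl had served to name the hours, so Cry1 was the called member that the choice of hours had not used. Groups that did not overlap were found for Nr1d1, Nr1d2 and Arntl, which named the hours, and for Clock and Cry1. Over all 9739 genes they were found in 3.57% with higher and 2.23% with lower levels at the REV-ERB-high hours, from which nothing is read for the named genes. The clock output list, chosen for genes known to follow the clock in other tissues, had 19 measured of 29 on the array. Dbp and Tef were the members called. The groups did not overlap for 4 members higher and 3 lower. The median drift-adjusted difference was 0.04 in the core clock list and 0.05 in the clock output list, beside 0.01 over all genes, since members lay on both sides.

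Several outputs outside the PAR bZIP family separated the groups without passing the test. Lonrf3, which encodes a RING finger protein, read 5.25, 6.21, 5.93 and 6.46 at the REV-ERB-high hours and 7.14, 7.30, 8.12 and 7.76 at the BMAL1-high hours. It climbed from the first day to the second in both groups, and its plain difference of −1.62 became −1.31 ± 0.251 after the linear term (limma adjusted p = 0.568). Its other probe set gave −1.51. Tspan4, a tetraspanin of the cell membrane, ranged from 12.47 to 12.90 and from 11.63 to 12.10, a difference of 0.70. Leo1, a subunit of the PAF1 transcription elongation complex, differed by −0.52, and Pnpla2, the triglyceride lipase ATGL, by 0.32, both without overlap. The cell cycle kinase gene Wee1 differed by 0.47 and the NAD synthesis enzyme Nampt by 0.31, with overlapping groups. Cirbp, Insig2, Klf10, Tsc22d3 and Alas1 had drift-adjusted differences between −0.11 and 0.20, and none was called. Usp2, Gys2, Elovl3, Pdk4, Hsd3b5, Avpr1a, Rgs16 and Slc45a3 fell below the limit.

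**Figure D2:**
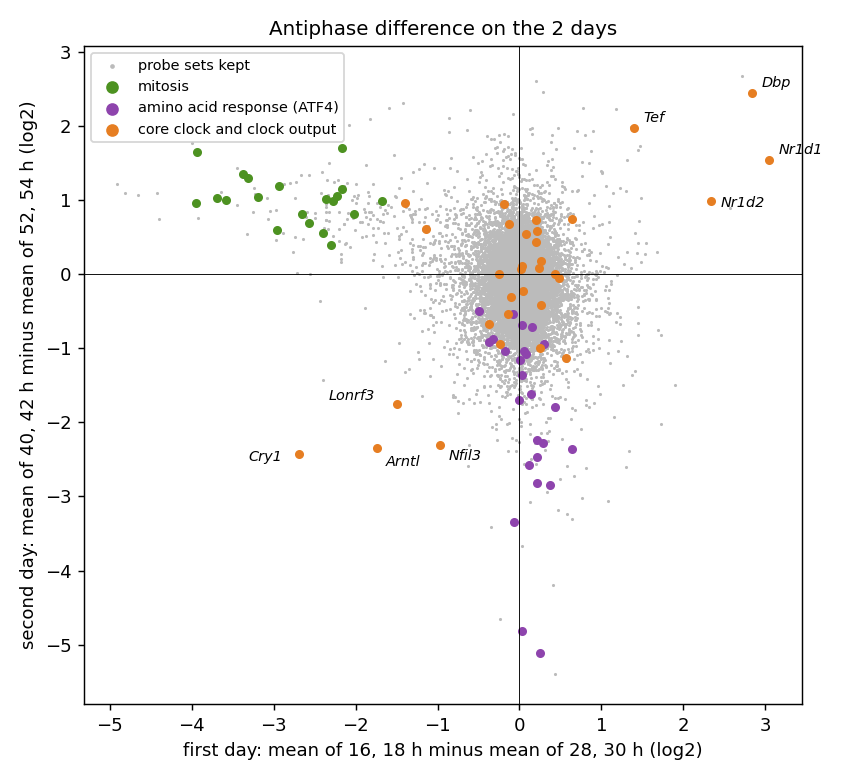
Each point is a kept probe set, placed by the log2 difference between the REV-ERB-high and BMAL1-high arrays on the first day (horizontal axis) and the second day (vertical axis); orange points are the measured core clock and clock output genes. Dbp, Tef, Nr1d1 and Nr1d2 lie far out at upper right and Cry1, Arntl, Lonrf3 and Nfil3 at lower left, while the 20 mitosis genes (green) have opposite signs on the 2 days and most of the amino acid response genes (purple) differ on the second day.

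Ivl, which encodes involucrin, a protein of the cornified envelope of epithelia, was the only called gene from outside the clock lists in the fit with a linear term. It is named outside the rule for named genes, since the probe set called was not its highest. That probe set read 10.27, 10.42, 10.13 and 9.86 at the REV-ERB-high hours and 11.20, 11.61, 11.17 and 11.10 at the BMAL1-high hours. The 2 days were nearly alike, with differences of −1.06 and −1.14, and the drift-adjusted difference of Ivl was −1.25 ± 0.129 (limma adjusted p = 0.0296). Its brighter probe set lay at 11.39 to 12.11 against 12.57 to 13.02, with a difference of −1.06 ± 0.15 (limma adjusted p = 0.191). The call of Ivl was lost when any array other than that of 28 h was left out.

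The 8 flanking arrays that bracket each pair lay outside the rule, though the hours were chosen with earlier results of these data known. They were 14, 20, 38 and 44 h on the REV-ERB side and 26, 32, 50 and 56 h on the BMAL1 side. In the same fit, limma called 2 probe sets there, 0.0109% of those tested, and both were Dbp. Dbp had 12.04, 12.06, 11.28 and 11.81 at the first 4 hours and 9.69, 9.40, 9.81 and 9.31 at the others. The groups again did not overlap, with a drift-adjusted difference of 2.12 ± 0.193 (limma adjusted p = 0.0458). Both calls were lost when any array other than that of 38 h was left out. On the BMAL1 side 0 probe sets were called, and 637 (3.48%) had an unadjusted p under 0.05 in either direction. No other tool was run.

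All 6 probe sets called in the central arrays had the same sign in the flanking arrays, as did 62.1% of all probe sets. Each flanking array lay 2 h from a central one, so a large difference was likely to keep its sign, and no support is read from this. Cry1 read 7.74, 8.11, 6.67 and 8.70 on the REV-ERB side and 9.51, 8.85, 9.96 and 9.06 on the BMAL1 side, still without overlap. The drift-adjusted flanking difference of Cry1 was −1.50 ± 0.484 and was not called (limma adjusted p = 0.99). Tef, Nr1d1, Nr1d2 and Arntl also kept their flanking groups apart, with drift-adjusted differences of 1.12, 2.00, 1.56 and −1.01, all uncalled. The share of all genes with flanking groups apart is not given, so nothing is read from such groups. The other 6 clock and output genes with central groups apart had overlapping flanking groups: Nfil3 (−0.42), Lonrf3 (−0.53), Clock (0.0049), Leo1 (−0.28), Tspan4 (0.57) and Pnpla2 (0.13). In Nfil3 and Lonrf3 the array of 44 h already stood near the BMAL1-high level, at 8.61 and 7.42. Per1 and Rora, whose central groups overlapped, had flanking groups apart, with differences of 0.56 and 0.35, also uncalled. In the other kept probe sets of Rora the flanking groups overlapped, with differences from −0.05 to 0.27.

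**Figure D3:**
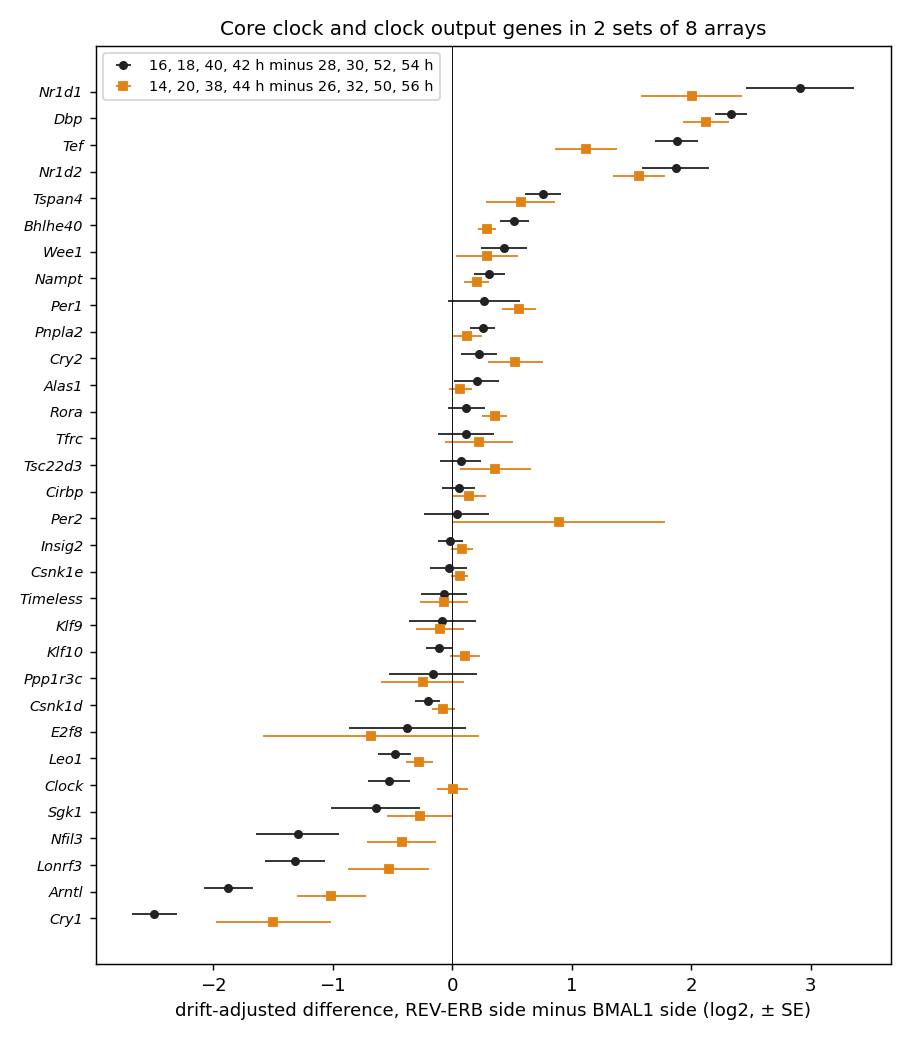
Drift-adjusted log2 difference, REV-ERB side minus BMAL1 side, with its standard error, for the 32 measured core clock and clock output genes in the 8 central arrays (black circles) and in the 8 flanking arrays (orange squares). Dbp keeps a difference above 2 in both sets, while Cry1, Arntl and Tef keep their direction with smaller flanking differences; Per2 has a flanking standard error of 0.886.

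A fit to all 24 arrays, with a 24 h cosine whose crest was set at 17 h, a sine and a linear term, used the central and flanking arrays again together with the other 8. It called 258 probe sets higher (1.41%) and 132 lower (0.721%) at the REV-ERB-high hours with the same sign on both days, against 3 and 3 in the 8 arrays. Counted by representative probe sets, 245 genes were called (2.52%). All 6 probe sets of the smaller fit were among the calls. The fit gave Nr1d1 a difference of 2.76 and Nr1d2 one of 1.95, which restate the choice of hours, since the crest was set at those hours and the same arrays entered. Bhlhe40, Cry2, Tspan4, Lonrf3 and Leo1 were called here with differences of 0.48, 0.43, 0.74, −1.08 and −0.41.

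Among genes outside the clock lists in this fit, ranked by p, the highest on the REV-ERB side was Avpi1, a vasopressin-induced transcript, with a difference of 0.61 ± 0.0846 (limma adjusted p = 0.000377). It was followed by Anxa7, an annexin (0.56), the vesicle fusion protein gene Vamp3 (0.28), Tns2, a tensin (0.60), and the stress kinase gene Map2k3 (0.40). On the BMAL1 side Bcor, a corepressor of BCL6, led with −0.61 ± 0.0678 (limma adjusted p = 9.13e-06). In the 8 arrays Bcor read 9.36, 9.74, 9.62 and 9.71 against 10.18, 10.35, 10.59 and 10.46. Pnrc1, a nuclear receptor coactivator (−0.34), Acot1, an acyl-CoA thioesterase (−0.40), and Cxxc4 (−0.58) came next. These genes were picked after their values were seen. By 24-array calls, 21.0% of the genes higher on the REV-ERB side that had a promoter held an E-box and 7.01% a RORE core, against 13.5% and 5.77% on the BMAL1 side. Over the kept genes those shares were 12.4% and 6.13%, and the difference between the shares was not tested. Among genes whose groups in the 8 arrays did not overlap, the E-box share was 12.7% on the REV-ERB side and 11.8% on the BMAL1 side, near that of the kept genes. Their RORE core shares were 7.88% and 6.51%.

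Groups that did not overlap were found in 545 probe sets higher (2.98%) and 428 lower (2.34%) at the REV-ERB-high hours. Without the array of 40 h, which stood apart, the counts were 964 and 513. With fewer arrays, groups overlap less easily, so a rise was likely whichever array was left out, and nothing is read from it. A plain difference of at least 1 in addition was met by 14 probe sets higher (0.0765%) and 18 lower (0.0983%). The clock genes led both directions. Beyond them the largest such differences on the REV-ERB side, named after their values were seen and without a test, were those of Reg4 (1.34), a secreted lectin, Ttc36 (1.27), a tetratricopeptide protein, Aoc1 (1.18), a diamine oxidase, Cyp2d10 (1.14), a cytochrome P450, and Tff3 (1.14), a trefoil peptide of mucosal surfaces. Reg4 read 6.22, 5.72, 6.20 and 6.41 against 5.40, 4.95, 4.30 and 4.56, and its flanking groups did not overlap either, nor did those of Aoc1. The flanking groups of Ttc36, Cyp2d10 and Tff3 overlapped. The share of all genes with flanking groups apart is not given, so nothing is read from this. After the linear term the differences were 1.23 for Reg4, 0.81 for Ttc36, 0.77 for Aoc1, 0.79 for Cyp2d10 and 0.83 for Tff3. None of these was called, and the part of a steady drift in the plain differences was not tested. Tff3 differed mostly on the second day, by 1.88 against 0.40 on the first.

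On the BMAL1 side the largest such differences beyond the clock were those of Dus4l (−1.61), a tRNA-modifying enzyme, Zfp365 (−1.31), a zinc finger protein, Glrb (−1.31), the glycine receptor beta subunit, the RIKEN transcript 4930503L19Rik (−1.22) and Mybl1 (−1.18), a Myb family factor. Glrb read 6.19, 6.59, 7.07 and 7.61 against 7.74, 7.73, 8.43 and 8.80. Its first-day and second-day differences were almost alike, at −1.34 and −1.28, on a rising level. Mybl1 had −1.22 and −1.14 on the 2 days. The others differed more on the second day: Dus4l by −0.63 and then −2.59, Zfp365 by −0.75 and −1.87, and 4930503L19Rik by −0.81 and −1.63. Dus4l averaged 4.86 at the REV-ERB-high hours, below the limit of 5. After the linear term the differences were −1.31 for Dus4l, −0.76 for Zfp365, −0.84 for Glrb, −1.05 for 4930503L19Rik and −0.92 for Mybl1, all uncalled. Glrb and Mybl1 were not called with the linear term (limma adjusted p = 0.568 and 0.353) but were called with day as a block in its place. The flanking groups of all 5 overlapped, with differences of 0.045 for Dus4l, −0.45 for Zfp365, −0.24 for Glrb, −0.32 for 4930503L19Rik and −0.31 for Mybl1.

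Among 16 measured REV-ERB and ROR targets Cry1 passed, as did Arntl, which had named the hours, beside 0.0411% of all genes. Clock and Nfil3 also kept their groups apart with lower levels, beside 2.23% of all genes. The metabolic targets described here had overlapping groups: Srebf1 differed by 0.56, Scd1 by 0.18, Plin2 by −0.11 and Apoc3 by 0.27. Of 9 PAR bZIP targets 0 were called. Acot1 was lower (−0.36) and Pgp higher (0.53) without overlap, while Aldh1a1 (0.66), Ces2a (0.57), Abcg2 (0.32) and Gsta3 (−0.16) overlapped. Over the 26 lists other than the clock, its outputs, the REV-ERB targets and the cell type markers, 397 genes were measured that the clock lists do not hold, and limma called 0. An unadjusted p under 0.05 with the same sign on both days was found for 25 higher (6.30%) and 16 lower (4.03%). Groups did not overlap for 22 higher (5.54%) and 7 lower (1.76%), beside 3.57% and 2.23% of all genes. Among them on the REV-ERB side were the cholesterol enzymes Dhcr7 (0.81), Fdft1 (0.73) and Mvk (0.47). The heme enzyme Cpox (−0.80) was among those on the other side. Each differed mostly on the second day. First-day and second-day differences were 0.20 and 1.42 for Dhcr7 and 0.12 and 1.35 for Fdft1. For Mvk they were 0.17 and 0.76, and for Cpox −0.29 and −1.30. The flanking differences were −0.07 for Dhcr7, 0.03 for Fdft1, 0.21 for Mvk and −0.17 for Cpox.

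A separate fit tested the change of the difference between the days, with group, day and their interaction and no condition on sign. Its counts are therefore not comparable with those of the antiphase calls. Its error came from pairs of arrays 2 h apart within a day. Its p-values thus measure the spread between neighbouring hours, and not that between cultures or between days. The interaction of group and day passed for 1662 probe sets (9.08%), of which 818 (4.47%) had a more positive difference on the second day and 844 (4.61%) a more negative one. In representative genes this was 521 (5.35%) and 420 (4.31%). Without 1 of the arrays in turn the counts ranged from 368 to 807 and from 234 to 1187, and they fell by over 1.5 times for both directions without the array of 18, 28, 30, 52 or 54 h, and for the negative direction also without that of 16 h.

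The mitosis list showed this most completely. All 20 measured members had a more positive difference on the second day, and 0 of 20 had the same sign on both days. Their median difference was −2.61 on the first day and 1.01 on the second. The median level over the list was 7.23 at 16 and 18 h, 10.09 at 28 and 30 h, 10.06 at 40 and 42 h and 8.98 at 52 and 54 h, so the first REV-ERB-high pair was the low one. Ccnb2, cyclin B2, read 6.94 and 6.85, then 10.94 and 10.72, then 11.18 and 11.41, then 9.61 and 9.66, with a change between the days of 5.59 ± 0.194 (SE, limma adjusted p = 2.3e-05). Plk1 and Aurkb, both mitotic kinases, and Ube2c, which serves the anaphase-promoting complex, changed by 4.62, 3.88 and 4.59. Of 23 DNA replication genes 11 changed in the same direction, among them Rrm2 (1.53), a subunit of ribonucleotide reductase, and Pcna (0.67), the sliding clamp.

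The amino acid response list, targets of the stress factor ATF4, had the opposite change. Of 25 measured members 19 had a more negative difference on the second day and 0 a more positive one. Their median difference was 0.08 on the first day and −1.62 on the second, while all genes had medians of 0.02 and −0.01. Chac1, which degrades glutathione, lay between 5.68 and 6.16 at the first 6 of the 8 hours and at 11.03 and 10.79 at 52 and 54 h. Over the whole course it stood at 5.90 at 42 h and 11.38 at 44 h, between the second REV-ERB-high pair and the second BMAL1-high pair. Trib3, a pseudokinase, stood at 6.57 at 42 h and 10.82 at 44 h, and Asns, asparagine synthetase, at 10.20 and 12.93. Psat1, Sesn2, Cebpb, Vldlr, Ddit4 and Cars did not pass.

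Many cholesterol synthesis genes and hypoxia targets had a more positive difference on the second day. Of 21 cholesterol genes 14 passed in that direction, with a median difference of 0.04 on the first day and 1.03 on the second. Idi1, isopentenyl diphosphate isomerase, changed by 1.82 ± 0.155 (SE, limma adjusted p = 0.000395) and Insig1, a brake on sterol synthesis, by 1.69 ± 0.21 (limma adjusted p = 0.00244). Of 18 hypoxia targets 10 passed in that direction, including Bnip3 (1.75), a mitophagy receptor, and Egln1 (0.97), an oxygen-sensing prolyl hydroxylase. Of 20 ribosome biogenesis genes 7 were more negative, led in size by Rrp12 (−1.74). Among hepatocyte markers Alb (0.76) and Ttr (1.02) had more positive and Ahsg (−2.74) more negative differences on the second day. The mean over the 14 hepatocyte markers lay between 7.84 and 8.21 at the REV-ERB-high hours and between 7.75 and 8.06 at the BMAL1-high hours. Of the bile duct markers Krt19 (0.51), Krt7 (0.93) and Muc1 (2.83) were also more positive, and the mean over the 5 on the array lay between 10.13 and 10.68 and between 9.78 and 10.39. Of the 7 macrophage markers Cd68 (2.81) and Cd14 (0.46) were more positive and Csf1r (−0.35) did not pass, while the mean over the list lay between 4.80 and 5.16 and between 4.93 and 5.06 and Ptprc and Adgre1 stayed at or near the lowest value. The part of hepatocyte, bile duct or macrophage RNA in these day differences was not tested.

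**Figure D4:**
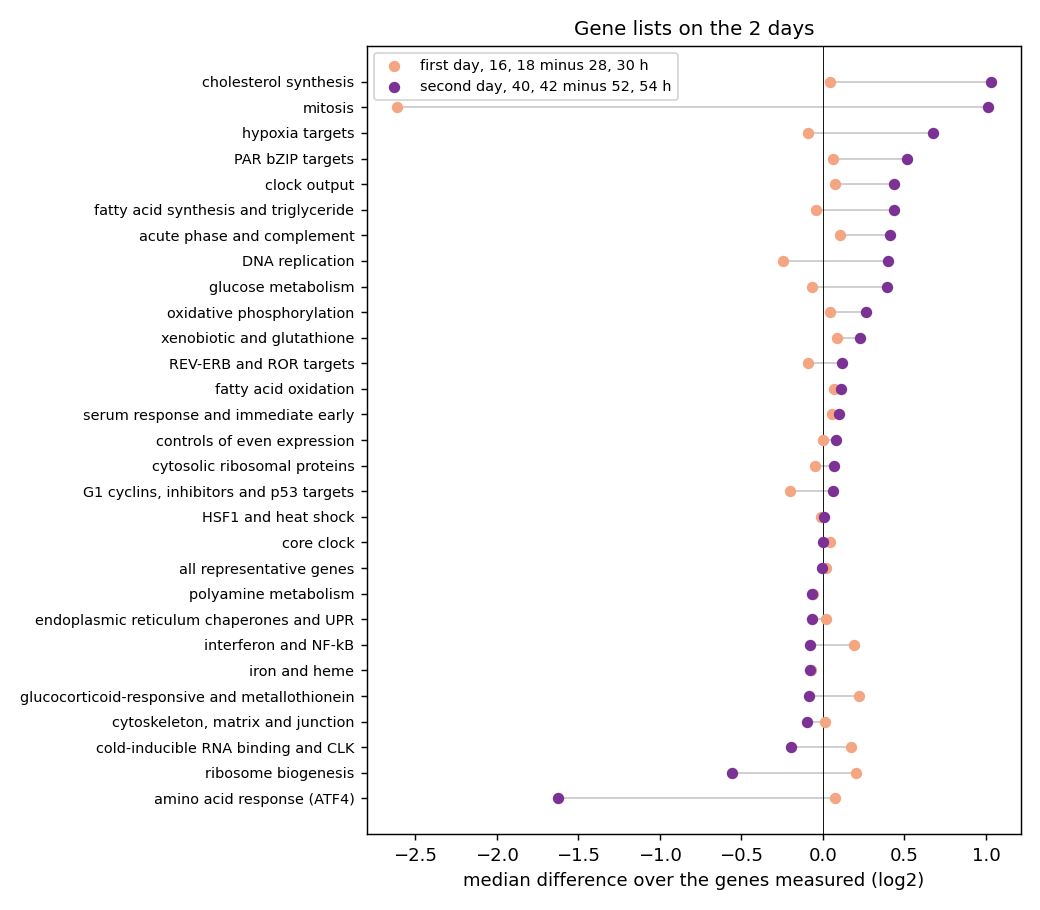
Median log2 difference between REV-ERB-high and BMAL1-high arrays over the measured genes of each list, on the first day (orange) and on the second day (purple). Mitosis genes move from −2.61 to 1.01 and amino acid response genes from 0.08 to −1.62, whereas all genes together stay near 0; the core clock list is also near 0 because its members lie on both sides.

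In the called clock genes the difference had the same sign on both days, as a call required, so nothing is read from that. Arntl had in addition served to name the hours. On the first and the second day the difference of Dbp was 2.84 and 2.46, of Cry1 −2.70 and −2.42, of Tef 1.40 and 1.98 and of Arntl −1.74 and −2.34. None of these changes between the days passed limma's interaction test (adjusted p between 0.188 and 0.667), which does not show that the days were equal. Within the clock lists Nr1d2, Tfrc, Alas1, Ppp1r3c, E2f8, Klf9 and Sgk1 did pass. Over all genes 5.35% passed with a more positive and 4.31% with a more negative difference on the second day. The other probe sets of Nr1d2, Tfrc, E2f8 and Klf9 passed too, but those of Alas1 (0.21, adjusted p = 0.608) and Ppp1r3c (0.98, adjusted p = 0.0918) did not, and that of Ppp1r3c had the same sign on both days. Klf9, a Krüppel-like factor that responds to glucocorticoids, went from a difference of 0.25 on the first day to −0.99 on the second, and Sgk1, a glucocorticoid-induced kinase, from 0.57 to −1.12. E2f8, a cell cycle repressor, went from −1.40 to 0.96.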

How the data were processed

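RNA from 24 samples of MMH-D3 cells, taken every 2 h from 12 to 58 h after serum shock, had been hybridised to Affymetrix arrays. The deposited table holds log2 values that the authors normalized with GCRMA, per the submitters' processing notes; its version is not given in the sources used here. GCRMA sets dim probe sets near a common lowest value, so low levels have little resolution: 40.7% of the values of the 8 arrays lay at 2.17. No further normalization was applied.

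Samples were grouped by the hours in their labels. The 64 control probe sets were left out. Probe sets with log2 of 5 or more in at least 4 of the 8 arrays were fitted with limma 3.58.1 in R 4.3.3 (lmFit, then eBayes with an intensity trend) on group and linear hours, with Benjamini-Hochberg adjustment over all 18302 probe sets. Calls needed an adjusted p under 0.05 and the same sign on both days. The change between the days was the interaction of group and day, with its error taken from pairs of arrays 2 h apart. The fit was tested on simulated data. In the platform annotation 34958 probe sets carried 1 gene symbol, while 932 carried several and were left unnamed, and 9160 carried none. Where a gene had several probe sets, the one of highest mean over the 8 arrays stood for it. Array number limits the precision, since each hour has 1 array.

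Named by rule were the measured members of the lists for the core clock and for clock outputs, with the called genes; other genes are marked as chosen after their values were seen. From the other lists, counts are given with example members, which were also chosen after their values were seen. The hours compared, the members and the gene lists were chosen with earlier results of these data known. Alternatives changed the drift term, the filter, the scaling, the variance prior and the arrays used.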

Additional observations from a re-analysis of the deposited data

Results flagged for a closer look

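In 7 clock and output genes the difference between REV-ERB-high and BMAL1-high arrays changed between the days by limma's interaction test (adjusted p under 0.05 over all probe sets). The lists held 13 core clock and 19 output genes measured. Over all genes 5.35% passed with a more positive and 4.31% with a more negative difference on the second day. The change, second day minus first, was −1.35 for Nr1d2, whose difference kept its sign. It was 1.14 for Tfrc, the transferrin receptor, 0.80 for Alas1, the first enzyme of heme synthesis, 1.75 for Ppp1r3c, a glycogen-targeting phosphatase subunit, and 2.37 for E2f8. It was −1.24 for Klf9 and −1.69 for Sgk1. These 6 genes had opposite signs on the 2 days. The changes of Alas1 and Ppp1r3c did not pass in their other probe sets, at 0.21 and 0.98.

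In 2 genes 1 array of the REV-ERB-high group stood far from the other 3 by Dixon's criterion, under which chance alone marks about 1 in 20 groups; 64 groups were examined. Cry2 read 8.53 at 40 h against 8.89 to 8.95 at the other hours, and 40 h was also the array with the lowest median. Tspan4 read 12.90 at 42 h against 12.47 to 12.53.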

How the results depend on the processing

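No paired analysis was possible because the labels carry no replicate numbers that could match samples across groups; the 2 days were used as a block instead. The counts of probe sets called higher and lower at the REV-ERB-high hours, 3 and 3, became 8 and 11 with day as a block, 6 and 4 with a quadratic drift, 0 and 0 with no filter on low values, 3 and 1 with one variance prior and 258 and 132 with all 24 arrays. They ranged from 2 to 4 and from 1 to 2 with 1 array left out. All 6 probe sets stayed called with day as a block and with the quadratic drift. Without the drift term 5 of the 6 did. The flanking count of 2 became 1 without the drift term, 5 with day as a block and 0 with no filter, and ranged from 0 to 2 with 1 array left out. The counts of more positive and more negative differences on the second day, 818 and 844, became 261 and 237 with no filter and ranged from 368 to 807 and from 234 to 1187 with 1 array left out. Without the array of 40 h, an alternative added after seeing the data, 964 probe sets in place of 545 had groups apart in the higher direction. Leaving out any array makes overlap less likely, so this rise is not read as an effect of that array.

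Among the genes named, differences that changed sign were all uncalled. With another probe set Rora gave −0.34, Csnk1d 0.27, 0.47, 0.094 and 0.42, Csnk1e 0.11 and 0.054, Timeless 0.065 and Insig2 0.14. With no drift term or day as a block Tsc22d3 gave −0.078 and Insig2 0.049. Centred arrays gave 0.0067 for Insig2, and all 24 arrays gave 0.0064 for Csnk1e, 0.047 for Insig2 and 0.0075 for Klf10. With 1 array left out the values ranged from −0.016 to 0.22 for Rora, from −0.21 to 0.30 for Per2, from −0.15 to 0.13 for Csnk1e, from −0.31 to 0.073 for Timeless, from −0.045 to 0.27 for Tsc22d3, from −0.067 to 0.29 for Tfrc, from −0.46 to 0.21 for Ppp1r3c, from −0.12 to 0.079 for Insig2, from −0.90 to 0.025 for E2f8 and from −0.27 to 0.23 for Klf9. The cause of these changes was not tested.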
